A study of Homo sapiens with 19 samples.

Results

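Liver organoids made from human pluripotent stem cells were kept on an orbital shaker and harvested at day 25 as the control arms of 3 separate stimulation experiments, and these control arms were compared with one another. The groups are named here the TGFB1 control, the PA control and the OA control, after the experiment each one served, and each holds 2 libraries. They were picked by their treatment label alone, and make up 6 of the 19 libraries of the series, with 35618 cells after filtering. No measured value entered that rule, though it was set with earlier results of these data known.

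The series profiled single cells by droplet sequencing from organoids in shaken and in low-attachment culture, with TGFB1, PA or OA given to shaken organoids. All 6 control libraries carry the same genotype label, wild-type, and the same line, W01 from WiCell. They had 20 days of culture and then 5 days of control treatment, while the treated arms received TGFB1 at 10 ng/ml, or PA or OA at 500 µM. What each control medium held is not given in the sources used here, and PA and OA are left as the labels write them. The experiment a control served and any differentiation batch change together in these groups, for the OA control also the gene list used for counting, and cannot be told apart. The TGFB1 and PA controls were counted on a list of 33538 genes and the OA control on one of 36601. Nothing in the labels says that the 2 libraries of a group came from separate cultures, so p-values measure only the spread between these libraries. The system has limits as a model of liver: it is 1 line, and in sums over a library fewer cells of a type and less RNA per cell cannot be told apart.

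Organoids of this kind start as gut-tube endoderm that is steered towards foregut and then liver, and they form an epithelium beside mesenchymal cells that deposit collagen. The HOX genes record position along the body axis, the low-numbered paralogs being used towards the head end and the high-numbered ones towards the tail end. Epithelia of stomach, intestine, bile duct and liver come from neighbouring stretches of the same tube, which is why marker genes of each were followed.

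Between 3095 and 9615 cells passed the filters in each library (at least 500 genes detected and at most 20% of counts mitochondrial), and they held 6878457 to 55573852 UMIs, counts of distinct RNA molecules, in the 32732 genes shared by both lists. Depth was uneven within groups: the median cell held 1310 and 5635 UMIs in the 2 TGFB1 control libraries, 1747 and 7058 in the PA control and 5473 and 14124 in the OA control. Mitochondrial RNA made up a median of 4.35% to 9.10% of a cell's counts. Any 2 of the 6 libraries shared 2 to 26 cell barcodes.

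The label liver was checked against hepatocyte genes. AFP, the fetal liver counterpart of albumin, stood at 521 and 431 CPM in the TGFB1 control, 660.3 and 786 in the PA control and 458 and 505 in the OA control (CPM, counts scaled to the same total in every summed library). ALB, adult albumin, reached only 3.35 and 3.14 CPM in the TGFB1 control, 33.3 and 43.1 in the PA control and 22 and 7.29 in the OA control. SERPINA1, encoding alpha-1-antitrypsin, stood at 1534 and 2658 CPM in the TGFB1 control, 18613 and 13535 in the PA control and 9834 and 7194 in the OA control. TF and HP, the genes of transferrin and haptoglobin, were at most 0.58 and 0.31 CPM in any of these libraries. Hepatocyte transcripts were thus present, led by fetal and secreted-protein genes, with 2 adult plasma protein genes near 0. Of the marker lists of other cell types, C1QA and PTPRC of macrophages or blood and CDH5 and VWF of endothelium were at or near 0, with no count of C1QA in any library and at most 3, 4 and 3 of the others. Other members of these lists had counts: EGFL7 reached 5441 counts, EMCN 438 and KDR 122 on the endothelial list, and LYZ reached 31289 and CD68 856 on the macrophage list. The endothelial list summed to 0.00541% to 0.0135% of UMIs in the 6 libraries and the macrophage list to 0.0201% to 0.0583%.

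Libraries of one control lay closer to each other than to any library of another control. The root mean square difference in log2 CPM was 0.715 within the TGFB1 control, 0.720 within the PA control and 0.454 within the OA control, against 1.02 to 1.42 between controls. Spearman correlations across genes were 0.977 to 0.991 within controls and 0.910 to 0.954 between them (genes are not independent replicates). Of the summed variance in log2 CPM, 82.0% lay between the controls and 18.0% within them.

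Many genes differed beyond that spread. By edgeR's quasi-likelihood test at an adjusted p under 0.05, 7493 of 18418 genes differed among the 3 controls, or 40.7%. The PA control differed from the TGFB1 control in 4053 genes (22.0%), of which 2169 were higher (11.8%) and 1884 lower (10.2%). The OA control differed from the TGFB1 control in 5301 (28.8%), with 2964 higher (16.1%) and 2337 lower (12.7%). Between the OA and PA controls 4385 genes differed (23.8%), 2371 being higher in the OA control (12.9%) and 2014 lower (10.9%). The counts fell steeply when a PA or OA control library was left out of its own comparison. Leaving out a TGFB1 control library brought no such fall. Each control enters 2 of the 3 comparisons, so these are not independent of one another. The median log2 fold change over all genes was -0.01, -0.01 and 0.01. Fold changes are scaled by TMM, which sets the bulk of genes near no change, so they exceed the ratio of printed CPM values; without that scaling they would fall by 0.27, 0.38 and 0.11.

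**Figure D1:**
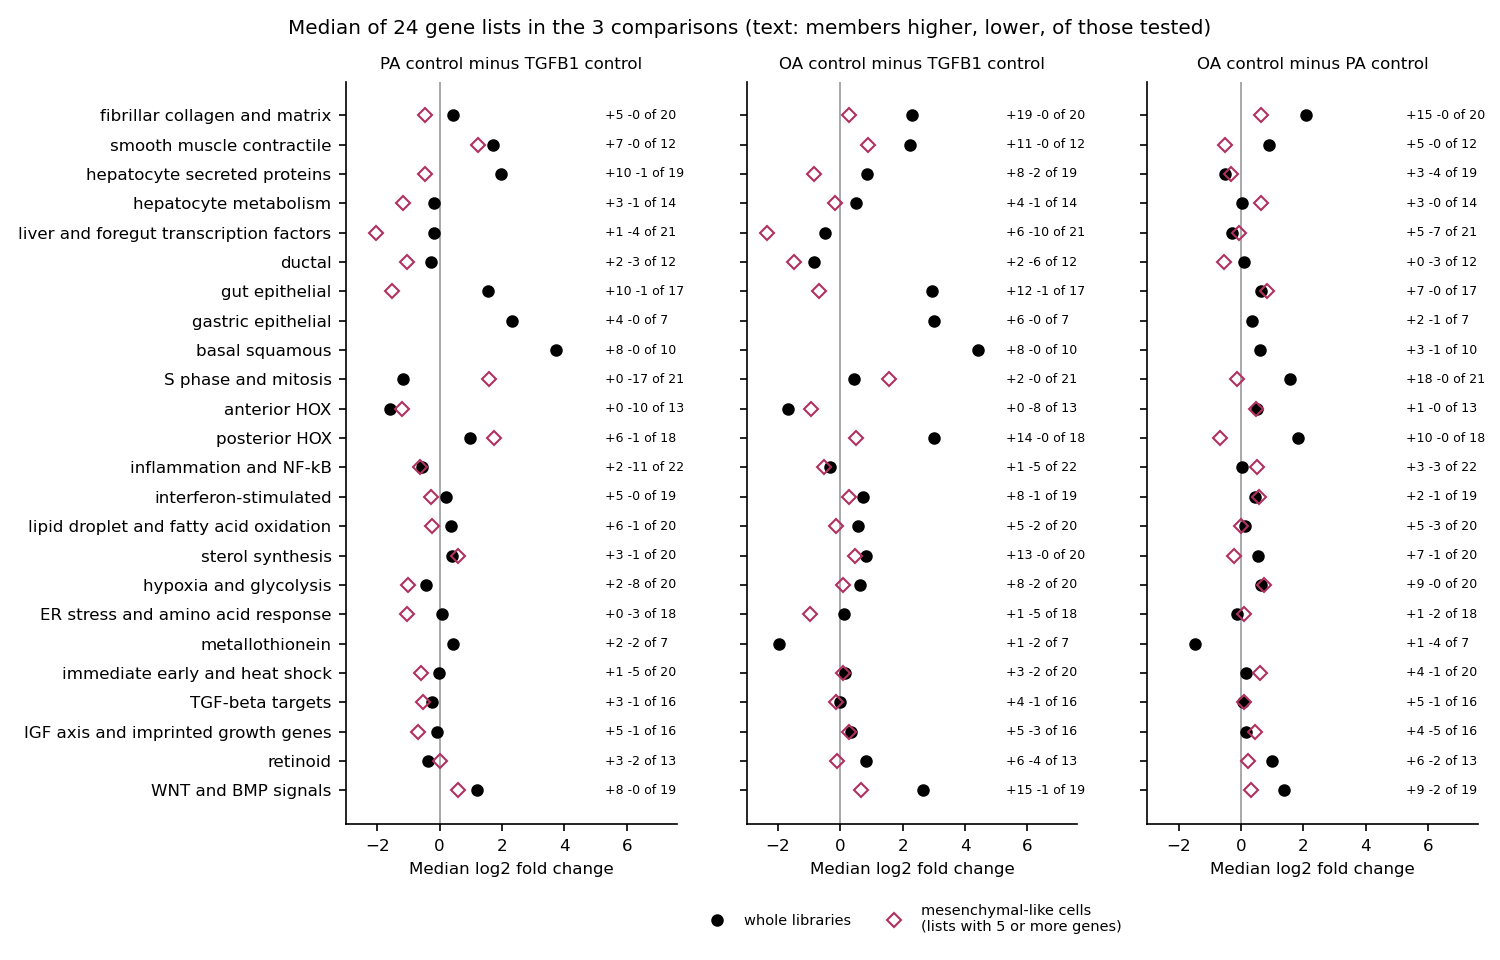
Median log2 fold change of the genes tested in each of the 24 gene lists (horizontal axis) in 3 panels, 1 per pair of controls, for whole libraries (filled) and mesenchymal-like cells (open), with the numbers of members called higher and lower by edgeR in whole libraries. In whole libraries the matrix, gut, gastric, squamous and posterior HOX lists lie to the right for the OA control against the TGFB1 control, with medians of 2.30, 2.93, 3.01, 4.41 and 3.01, and the anterior HOX list lies at -1.67.

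The OA control stood apart first by its matrix genes. Of 20 collagen and matrix genes tested, 19 were higher than in the TGFB1 control and none lower, with a median log2 fold change of 2.30. Against the PA control 15 were higher and none lower, with a median of 2.09. COL1A1 (GRCh38, chromosome 17, 50184101 to 50201632), encoding the main chain of type I collagen, stood at 234 and 217 CPM in the TGFB1 control, 141 and 204 in the PA control and 712 and 1261 in the OA control. Both OA control libraries lay above the other 4, and the PA control lay just under the TGFB1 control. The difference from the TGFB1 control was 2.49 (SE 0.322, edgeR adjusted p 0.000387), and that from the PA control 2.61 (SE 0.323, edgeR adjusted p 0.000533). DCN, a proteoglycan that binds collagen fibrils, showed a wider gap, at 6.20 and 4.94 CPM in the TGFB1 control, 4.36 and 10.6 in the PA control and 82.8 and 108 in the OA control. It was 4.48 higher on the log2 scale than in the TGFB1 control by edgeR (adjusted p 2.33e-05). Its relative LUM rose stepwise across the controls, from 20.6 and 22 CPM through 35.3 and 75.5 to 171 and 257, with no overlap between groups. The LUM difference between PA and TGFB1 controls, 1.63 (edgeR adjusted p 0.00814), was lost without PA control replicate 2 (adjusted p 0.0946). Over the list, the PA control exceeded the TGFB1 control in 5 of 20 genes and fell below it in none, with a median of 0.43, a share of 25% that is near the 22.0% called among all genes.

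MFAP4, HAS2 and TDO2 were also high in the OA control. MFAP4, a protein of elastic fibres, stood at 15.3 and 11.1 CPM in the TGFB1 control, 7.56 and 9.45 in the PA control and 106 and 125 in the OA control. HAS2, which makes hyaluronan, stood at 3.54 and 2.53 CPM in the TGFB1 control, 5.09 and 6.76 in the PA control and 55.7 and 65.6 in the OA control. Both were higher in the OA control than in the PA control by edgeR, by 3.86 and 3.44 on the log2 scale (adjusted p 1.19e-05 and 1.94e-05), with no overlap. TDO2, a tryptophan-degrading enzyme, also separated the OA control, at 101 and 157 CPM against 11 and 14.2 in the PA control and 3.23 and 5.93 in the TGFB1 control. PLA2G2A, a secreted phospholipase, led a group of cells ahead of SERPINA3, ADH1A and SOX2, of which SERPINA3 also differed along with the gene list. Among genes that met the rule for naming, PLA2G2A showed the largest fold change over the TGFB1 control. It stood at 0.380 and 0.612 CPM in the TGFB1 control, 33.0 and 25.0 in the PA control and 313 and 239 in the OA control. The log2 fold change was 9.35 (SE 0.446) with an edgeR adjusted p of 2.97e-06, and the PA control lay between.

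The smooth muscle list divided the controls differently, with the TGFB1 control low and the other two above it. Of 12 contractile genes tested, 7 were higher in the PA control and 11 in the OA control than in the TGFB1 control, none was lower, and the medians were 1.70 and 2.22. Between OA and PA controls 5 were higher in the OA control and none lower, with a median of 0.91. By mean CPM, not scaled by TMM, 9 of the 12 were highest in the OA control and 3 in the PA control. Of all 18418 genes, 4218 were highest in the OA control, 4581 in the PA control and 9619 in the TGFB1 control. MYL9, a myosin light chain, stood at 43.8 and 59.1 CPM in the TGFB1 control, 233 and 248 in the PA control and 125 and 218 in the OA control. The OA control lay between the others without overlap. DES, the intermediate filament desmin, was different, at 0.633 and 0.344 CPM in the TGFB1 control, 0 and 0.221 in the PA control and 6.41 and 11.9 in the OA control. The PA control lay at or under the level of the TGFB1 control here, and the OA control exceeded it by 5.76 (edgeR adjusted p 0.000131). ACTA2, smooth muscle actin, stood at 7.91 and 16.6 CPM in the TGFB1 control, 28.3 and 63.9 in the PA control and 88.0 and 144 in the OA control, rising in the same order as LUM. Its exons overlap a gene found in only 1 of the 2 gene lists, and its difference between OA and PA controls (1.43, edgeR adjusted p 0.0355) was lost without PA control replicate 1 or OA control replicate 2.

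Signals of WNT and BMP pathways, among them mesenchymal ligands and secreted inhibitors, were highest in the OA control. Of 19 tested, 15 were higher and 1 lower than in the TGFB1 control (median 2.65), and 9 were higher and 2 lower than in the PA control (median 1.39). RSPO3, a ligand that strengthens WNT signals, stood at 1.64 and 3.37 CPM in the TGFB1 control, 3.49 and 8.24 in the PA control and 29.9 and 50.3 in the OA control. SFRP2, a secreted WNT modulator, was at 0.316 and 0.287 CPM in the TGFB1 control, 6.11 and 3.69 in the PA control and 9.32 and 14.4 in the OA control. For both genes the groups did not overlap, and the log2 fold changes against the TGFB1 control were 4.25 and 5.64 (edgeR adjusted p 0.000111 and 2.18e-05). WNT4 went the other way, with 25.3 and 29.2 CPM in the PA control against 5.06 and 13 in the TGFB1 control and 3.96 and 4.90 in the OA control.

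**Figure D2:**
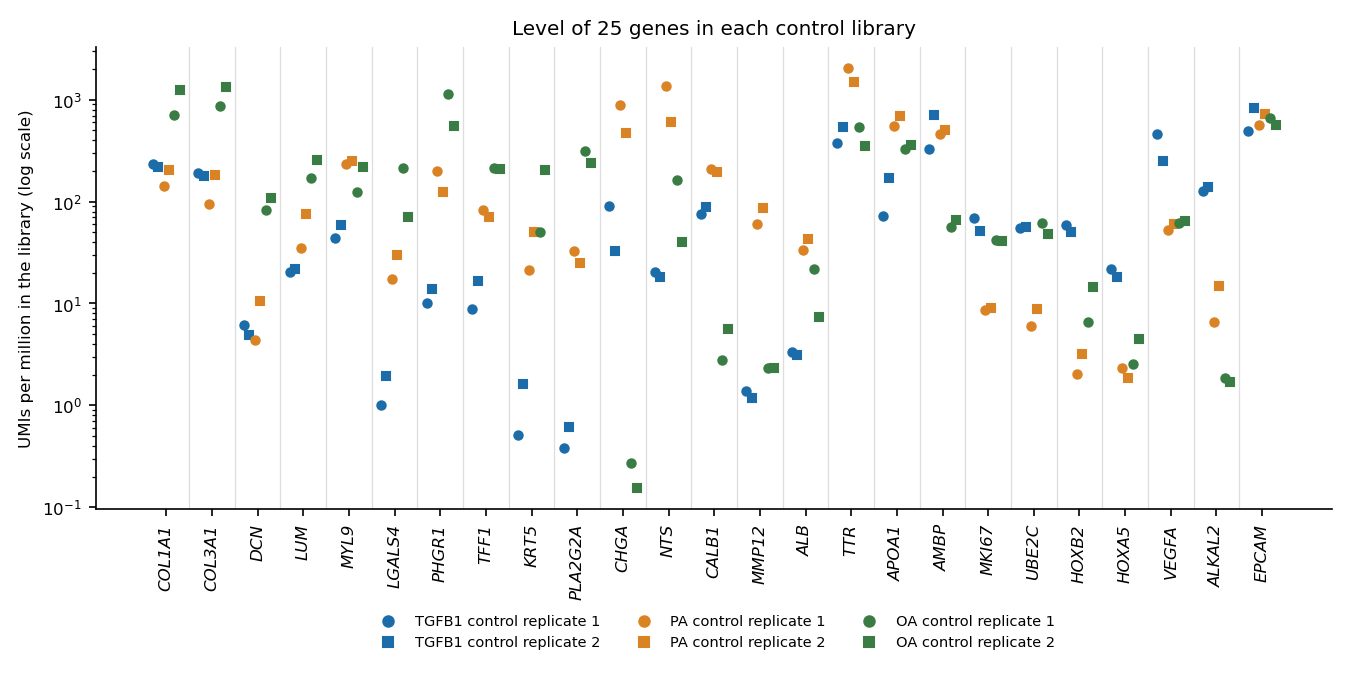
CPM on a log axis of 25 genes in the 6 control libraries, 1 point per library, with colour for the control and shape for the replicate. COL1A1 is highest in both OA control libraries (712 and 1261 CPM) and MKI67 is lowest in both PA control libraries (8.58 and 9.01 CPM).

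Most genes tested of intestinal and squamous epithelium, and 4 or 6 of 7 of gastric epithelium, were higher in the PA and OA controls than in the TGFB1 control. Of 17 gut epithelial genes, 10 were higher and 1 lower in the PA control (median 1.55), and 12 were higher and 1 lower in the OA control (median 2.93). Of the 17, 3 were highest in the TGFB1 control by mean CPM, beside 9619 of all 18418 genes. Among these 3 was ISX, an intestinal transcription factor, at 17.2 and 15.6 CPM in the TGFB1 control, 5.52 and 5.52 in the PA control and 6.30 and 4.98 in the OA control. LGALS4, a galectin of intestinal epithelium, stood at 1.01 and 1.95 CPM in the TGFB1 control, 17.4 and 30.1 in the PA control and 214 and 70.1 in the OA control. PHGR1, another gene of intestinal epithelium, stood at 10.2 and 14.0 CPM in the TGFB1 control, 199 and 123 in the PA control and 1150.2 and 550.1 in the OA control. In both genes the 3 groups lay in the order TGFB1, PA, OA without overlap, although the 2 OA control libraries differed from each other by more than the PA control libraries did on the CPM scale. Against the TGFB1 control the OA control differed by 6.87 and 6.52 on the log2 scale (edgeR adjusted p 7.04e-05 and 3.66e-05). CDX1, an intestinal transcription factor, was high only in the OA libraries among these 6, at 67.1 and 34.6 CPM against 2.34 and 6.01 in the TGFB1 control and 3.78 and 4.26 in the PA control. Its relative CDX2 showed no such step, with 32.5 and 49.2 CPM in the TGFB1 control, 52.6 and 53.4 in the PA control and 45.6 and 32.7 in the OA control, and no edgeR comparison of CDX2 passed the threshold (adjusted p 0.167, 0.47 and 0.482).

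Of 7 gastric genes, 4 were higher in the PA control and 6 in the OA control than in the TGFB1 control, and none was lower. TFF1, a peptide of stomach mucus, stood at 8.86 and 16.7 CPM in the TGFB1 control, 82.1 and 71.5 in the PA control and 216 and 211 in the OA control. The groups did not overlap, and the PA and OA controls exceeded the TGFB1 control by 2.82 and 4.40 (edgeR adjusted p 0.00116 and 4.14e-05). CLDN18, a tight junction protein of stomach and lung, overlapped between the PA control (11.9 and 20.8 CPM) and the OA control (8.85 and 13), above 1.46 and 1.47 in the TGFB1 control.

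Of 10 genes of basal squamous epithelium, 8 were higher in the PA control and 8 in the OA control than in the TGFB1 control, none was lower, and the medians were 3.72 and 4.41. KRT5, a keratin of basal cells, stood at 0.506 and 1.63 CPM in the TGFB1 control, 21.4 and 50.5 in the PA control and 50.6 and 204 in the OA control. KRT6A had no count in either TGFB1 control library, against 24.7 and 58.6 CPM in the PA control and 41.3 and 163 in the OA control. Set against a floor of 3 counts over the TGFB1 control, KRT6A was at least 946-fold higher in the PA control and at least 2314-fold higher in the OA control. In both genes the first OA control library lay near the second PA control library, and the difference in KRT5 between OA and PA controls (1.89, edgeR adjusted p 0.0422) lost its call without any 1 of 3 libraries. S100A2, a calcium-binding protein of basal epithelium, was instead highest in the PA control, at 44.5 and 62.2 CPM against 5.76 and 6.72 in the TGFB1 control and 9.41 and 10.9 in the OA control.

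CHGA and CFTR were lowest in the OA control. CHGA (GRCh38, chromosome 14, 92923150 to 92935285), a granule protein of neuroendocrine cells, stood at 91.3 and 33.1 CPM in the TGFB1 control, 891 and 468 in the PA control and 0.270 and 0.153 in the OA control. The 3 groups did not overlap and lay in the order OA, TGFB1, PA. The OA control was below the TGFB1 control by a log2 fold change of -7.74 (SE 0.654) and below the PA control by one of -11.53 (SE 0.731), with edgeR adjusted p of 3.74e-05 and 1.19e-05. CFTR, the chloride channel of duct epithelium, stood at 121 and 166 CPM in the TGFB1 control, 149 and 149.8 in the PA control and 12.6 and 10.1 in the OA control, low in the OA control and overlapping between the others (log2 fold changes -3.29 and -3.61, edgeR adjusted p 6.32e-05 and 6.43e-05). Of 12 ductal genes, 6 were lower and 2 higher in the OA control than in the TGFB1 control, with a median of -0.85. Against the PA control 3 were lower and none higher, a share of 25% that is near the 23.8% called among all genes. The median was 0.11, so the list as a whole was not lowest in the OA control. KRT7, a keratin of bile duct and other simple epithelia, was among the higher ones, at 22.8 and 56.6 CPM in the TGFB1 control, 98.1 and 130.1 in the PA control and 176 and 237 in the OA control. ANXA4, an annexin of ductal epithelium, was instead high in the TGFB1 control, at 895 and 1184 CPM, against 176 and 251 in the PA control and 201 and 251 in the OA control.

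CALB1, NKX6-2 and EDN3, 3 of the genes with the largest fall, shared the low level in the OA control. The calcium-binding protein gene CALB1 stood at 75.1 and 89.6 CPM in the TGFB1 control, 211 and 194 in the PA control and 2.77 and 5.61 in the OA control. The homeobox gene NKX6-2 stood at 64.7 and 107 CPM in the TGFB1 control, 129.7 and 113 in the PA control and 1.76 and 4.6 in the OA control. EDN3, an endothelin, was at 116 and 143 CPM in the TGFB1 control, 59.3 and 67.1 in the PA control and 1.58 and 4.81 in the OA control. In all 3 genes both OA control libraries lay far under the other 4, with log2 fold changes of -5.52, -5.18 and -4.23 against the PA control by edgeR (adjusted p 1.59e-05, 8.18e-05 and 0.00016).

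Of 21 transcription factors of liver and foregut, 10 were lower and 6 higher in the OA control than in the TGFB1 control, and 4 were lower and 1 higher in the PA control. The PA count is 23.8% of the list, near the 22.0% of all genes. ONECUT2, a factor of liver and bile duct development, fell in the order TGFB1, PA, OA without overlap, from 874 and 559 CPM through 313 and 261 to 95.5 and 98.6. HHEX, needed for the liver bud, followed the same order, with 141 and 116, 38.1 and 41.4 and 14.6 and 22.5 CPM. For HHEX the log2 fold changes against the TGFB1 control were -1.41 in the PA control and -2.42 in the OA control (edgeR adjusted p 0.00341 and 8.67e-05). The factors that were higher in the OA control included CDX1, of intestine, and CEBPA, a factor of mature hepatocytes that stood at 37.9 and 24.4 CPM there against 7.41 and 9.69 in the PA control. Hence 1 list held genes moving both ways.

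More genes of secreted hepatocyte proteins were higher than lower in the PA and OA controls against the TGFB1 control. Of 19 tested, 10 were higher and 1 lower in the PA control (median 1.96), and 8 were higher and 2 lower in the OA control (median 0.85). Between OA and PA controls 3 were higher and 4 lower in the OA control, with a median of -0.50. The list summed to 24515 and 18655 CPM in the PA control, 13173 and 9549.8 in the OA control and 3447 and 5136 in the TGFB1 control. SERPINA1 made up most of this sum in the PA and OA controls, and a smaller part in the TGFB1 control. APOA1, an apolipoprotein of liver and intestine, stood at 71.7 and 171 CPM in the TGFB1 control, 552 and 694 in the PA control and 329 and 357 in the OA control. The PA and OA controls lay above the TGFB1 control without overlap, by 2.59 and 1.84 (edgeR adjusted p 0.00329 and 0.00843). ALB was higher in the PA control than in the TGFB1 control by 3.82 (edgeR adjusted p 0.00125), at the levels given above, and its difference between OA and PA controls did not pass (log2 fold change -1.23, edgeR adjusted p 0.0654). AMBP, a secreted protease inhibitor precursor, was low in the OA control instead, at 332 and 715 CPM in the TGFB1 control, 459 and 503 in the PA control and 56.9 and 65.7 in the OA control. AFP was 0.88 higher in the PA than in the TGFB1 control (edgeR adjusted p 0.0366), a call lost in 5 of the alternative analyses. Enzymes of hepatocyte metabolism did not follow: 3 of 14 were higher and 1 lower in the PA than in the TGFB1 control, with a median of -0.17.

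NTS and MMP12 were high in the PA control. NTS (GRCh38, chromosome 12, 85874295 to 85882992), encoding the gut peptide neurotensin, stood at 20.2 and 18.2 CPM in the TGFB1 control, 1355 and 609 in the PA control and 164 and 40.4 in the OA control. Both PA control libraries were above all others, and the log2 fold change against the TGFB1 control was 5.98 (SE 0.739) with an edgeR adjusted p of 0.00107. MMP12, a metalloproteinase first known from macrophages, stood at 60.3 and 85.9 CPM in the PA control against 1.39 and 1.19 in the TGFB1 control and 2.32 and 2.33 in the OA control. Of the macrophage list, C1QA and PTPRC were at or near 0 in the same libraries, whereas CD68 stood at 7.53 and 9.76 CPM in the TGFB1 control, 8.72 and 8.59 in the PA control and 15.4 and 10.2 in the OA control, and the part of such cells in the MMP12 level was not tested. CXCL14, a chemokine of epithelium and stroma, was high in both PA and OA controls, at 202 and 199.8 and 159.7 and 274 CPM against 7.09 and 8.04 in the TGFB1 control. CD36, a fatty acid transporter, stood at 6.54 and 3.25 CPM in the PA control, 0.380 and 0.421 in the TGFB1 control and 0.198 and 0.477 in the OA control. TGFB1 itself, the gene of the cytokine given in another arm of the series, was also highest there, at 56.4 and 59.1 CPM in the TGFB1 control, 173 and 180.3 in the PA control and 109 and 106 in the OA control (PA against TGFB1 control: log2 fold change 1.88, edgeR adjusted p 0.00117).

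In whole libraries 17 of 21 genes of S phase and mitosis were lower in the PA control than in the TGFB1 control and none higher, with a median of -1.18. Within mesenchymal-like cells, grouped apart from cycling-like cells, 14 of the 21 were higher in the PA than in the TGFB1 control (median 1.59) and 15 in the OA than in the TGFB1 control (median 1.56), and none was lower. MKI67 was not among them, at 60.3 and 19.7 CPM in the TGFB1 control, 48.7 and 34.6 in the PA control and 55.5 and 47.3 in the OA control in those cells (edgeR adjusted p 0.601 and 0.0873). The counts depended on the grouping: in the cells still named mesenchymal-like at a finer resolution, edgeR called at most 1 of 17 tested in either comparison, with medians of -0.17 and 0.22, whereas with the class named without called genes 16 and 14 of 21 were higher, with medians of 1.71 and 1.36. In whole libraries the OA control was higher than the PA control in 18 and lower in none, with a median of 1.59. The OA and TGFB1 controls differed in 2, both higher in the OA control. MKI67 (GRCh38, chromosome 10, 128096659 to 128126423), the antigen used to count dividing cells, stood at 69.0 and 51.3 CPM in the TGFB1 control, 8.58 and 9.01 in the PA control and 41.8 and 41.0 in the OA control. UBE2C, a ubiquitin-conjugating enzyme of mitosis, stood at 55.7 and 56.8, 5.96 and 8.77 and 61.1 and 48 CPM in the TGFB1, PA and OA controls. In both genes the PA control libraries lay under the other 4, which were close together. For MKI67 the log2 fold change of the PA against the TGFB1 control was -2.49 (SE 0.229, edgeR adjusted p 0.000369) and that of the OA against the PA control 2.35 (SE 0.228, edgeR adjusted p 0.000127).

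The TGFB1 control held the highest levels of anterior HOX genes. Of 13 tested, 10 were lower in the PA control and 8 in the OA control, none was higher in either, and the medians were -1.58 and -1.67. HOXB2 (GRCh38, chromosome 17, 48540894 to 48545109) stood at 58.9 and 50 CPM in the TGFB1 control, 2.04 and 3.22 in the PA control and 6.53 and 14.6 in the OA control. HOXB3 stood at 114 and 45.2 CPM in the TGFB1 control, 11 and 14.4 in the PA control and 5.87 and 9.06 in the OA control. HOXA5 stood at 21.7 and 18.0, 2.33 and 1.85 and 2.52 and 4.50 CPM in the TGFB1, PA and OA controls. In these 3 genes both TGFB1 control libraries were above the other 4. The PA and TGFB1 controls differed in HOXB2 by -4.01 (SE 0.365) and in HOXA5 by -3.05 (SE 0.332), with edgeR adjusted p of 0.000369 and 0.000621. RARB, a retinoic acid receptor that is itself induced by retinoic acid, had the same order as HOXA5, at 24.4 and 15.5, 1.31 and 1.79 and 2.93 and 6.14 CPM.

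The posterior HOX list summed to less than the anterior list in the TGFB1 and PA controls. In the OA control it summed to 82.4 and 99.3 CPM, against 44.4 and 69.2 for the anterior list. The posterior sum was lower in the PA control than in the TGFB1 control, as the anterior sum was. Gene by gene, most posterior HOX genes moved the opposite way to the anterior ones in the OA control. Of 18 tested, 14 were higher in the OA control than in the TGFB1 control and none lower, with a median of 3.01, or 3.00 with HOXC10, which had no count in the TGFB1 control, at its bound. Against the PA control 10 were higher and none lower, with a median of 1.83, and between PA and TGFB1 controls 6 were higher and 1 lower. HOXA11 stood at 0.190 and 0.210 CPM in the TGFB1 control, 0.872 and 1.74 in the PA control and 4.34 and 6.64 in the OA control, in the order TGFB1, PA, OA without overlap, and the outer groups differed by 5.05 (SE 0.449, edgeR adjusted p 4.75e-05). HOXC9 stood at 0.316 and 0.153, 0.582 and 0.331 and 5.20 and 3.13 CPM, so that only the OA libraries of these 6 exceeded 1 CPM. HOXB6 was the exception that was lower in the PA control, at 1.60 and 2.34 CPM against 24 and 24 in the TGFB1 control (log2 fold change -3.27, edgeR adjusted p 0.000498). HOXA9, HOXA10 and HOXC10 overlap genes found in 1 of the gene lists, and no overlap was found for HOXA11, HOXC9 and HOXD10. Overlaps could be looked for with 562 of the 806 genes found only in the shorter list and 3815 of the 3869 found only in the longer one.

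**Figure D3:**
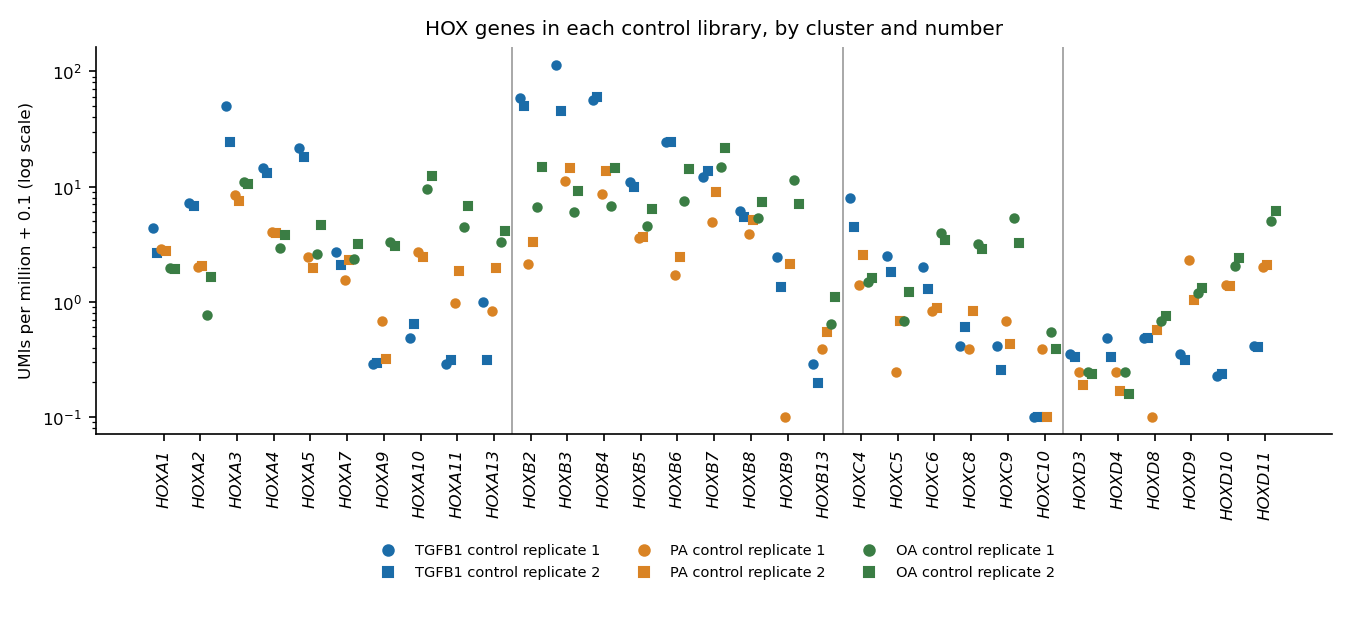
CPM plus 0.1, on a log axis, of HOX genes by cluster and paralog number in the 6 control libraries, 1 point per library, with colour for the control and shape for the replicate. HOXB2 and HOXB3 stand highest in the TGFB1 control (58.9 and 50 and 114 and 45.2 CPM), whereas HOXA11 and HOXC9 stand highest in the OA control (4.34 and 6.64 and 5.20 and 3.13 CPM).

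More genes of inflammation were lower than higher in the PA control against the TGFB1 control. Of 22 inflammation and NF-kB genes, 11 were lower and 2 higher (median -0.57), so that 59.1% were called beside 22.0% of all genes. In the OA control 5 were lower and 1 higher (median -0.32), and these 27.3% are near the 28.8% called among all genes. CXCL6, a neutrophil chemokine, stood at 78.3 and 100.1 CPM in the TGFB1 control, 31.8 and 35.6 in the PA control and 13.9 and 20.5 in the OA control. TNFAIP2, a gene induced by TNF, stood at 59.5 and 59.6 CPM in the TGFB1 control, 13.5 and 18.4 in the PA control and 12 and 10.3 in the OA control. Both genes were above the other controls without overlap (OA against TGFB1 control: log2 fold change -2.03 and -2.03, edgeR adjusted p 0.000365 and 0.0002). SAA1, an acute-phase protein, went against the list, at 1.90 and 4 CPM in the TGFB1 control, 28.5 and 4.68 in the PA control and 5.90 and 18.7 in the OA control, with its PA control libraries far apart.

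Of 20 hypoxia and glycolysis genes, 8 were lower and 2 higher in the PA than in the TGFB1 control, whereas 8 were higher and 2 lower in the OA control. VEGFA, the vascular growth factor, stood at 459 and 252 CPM in the TGFB1 control, 53.1 and 60.4 in the PA control and 62.2 and 64.7 in the OA control. It was high in both TGFB1 control libraries, and the other 4 lay close together, with log2 fold changes of -2.35 and -2.08 (edgeR adjusted p 0.000959 and 0.000479). SLC2A1, a glucose transporter, was instead highest in the OA control, at 34.8 and 23.7, 14.5 and 17.9 and 66.4 and 68.8 CPM in the TGFB1, PA and OA controls. ALKAL2, a ligand of the ALK receptor, also stood high in both TGFB1 control libraries, at 127 and 140.3 CPM in the TGFB1 control, 6.54 and 14.9 in the PA control and 1.84 and 1.68 in the OA control. ADH1C, an alcohol dehydrogenase of liver and gut, stood at 75.9 and 86.6 CPM in the TGFB1 control, 5.82 and 5.17 in the PA control and 6.17 and 14.0 in the OA control. Both were lower in the PA and OA controls with no overlap (PA against TGFB1 control: log2 fold change -3.34 and -3.65, edgeR adjusted p 0.000481 and 0.000481).

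Metabolic, stress and growth factor lists were mixed. Of 20 lipid droplet and fatty acid oxidation genes, 6 were higher and 1 lower in the PA control and 5 higher and 2 lower in the OA control than in the TGFB1 control, with medians of 0.37 and 0.56. Of 20 sterol synthesis genes, 3 were higher and 1 lower in the PA control, and 13 were higher and none lower in the OA control, with medians of 0.40 and 0.83. INSIG1, a sterol sensor of that pathway, stood at 20.7 and 11.7 CPM in the TGFB1 control, 24.6 and 18.9 in the PA control and 42.6 and 40.6 in the OA control, above the other controls only in the OA control (log2 fold change 1.77 against the TGFB1 control, edgeR adjusted p 0.00118). Of 19 interferon-stimulated genes, 5 were higher and none lower in the PA control and 8 higher and 1 lower in the OA control. IFI6, one of them, was highest in the PA control, at 206 and 238 CPM against 20.3 and 42.9 in the TGFB1 control and 62.0 and 56.1 in the OA control. Of 18 genes of ER stress and the amino acid response, 3 were lower in the PA control, and 5 were lower and 1 higher in the OA control. Of 20 immediate early and heat shock genes, 5 were lower and 1 higher in the PA control, led by HSPA1B at 43.5 and 31.5 CPM in the TGFB1 control, 4.94 and 6.82 in the PA control and 16.6 and 18.0 in the OA control, and 3 were higher and 2 lower in the OA control, with medians of -0.03 and 0.14. Among 16 TGF-beta targets 3 were higher and 1 lower in the PA control and 4 higher and 1 lower in the OA control, with medians of -0.26 and -0.02. Of 7 metallothioneins, 2 were higher and 2 lower in the PA control, and 1 higher and 2 lower in the OA control. Of 16 genes of the IGF axis, 5 were higher and 1 lower in the PA control and 5 higher and 3 lower in the OA control. IGFBP4, which binds IGFs, stood at 4.74 and 4.69 CPM in the TGFB1 control, 10.3 and 18.2 in the PA control and 70.1 and 70.1 in the OA control, in the order TGFB1, PA, OA without overlap. Of 13 retinoid genes, 3 were higher and 2 lower in the PA control and 6 higher and 4 lower in the OA control. RBP4, the plasma carrier of retinol, stood at 1.46 and 2.91 CPM in the TGFB1 control, 16.0 and 18.8 in the PA control and 124 and 52.4 in the OA control, in the same order. Enzymes of hepatocyte metabolism gave 4 higher and 1 lower of 14 in the OA control. Several of these counts are near the share called among all genes, 22.0% against the TGFB1 control in the PA control and 28.8% in the OA control. In the PA control the share called was 16.7% of ER stress genes, 20% of sterol genes, 25% of TGF-beta targets, 26.3% of interferon-stimulated genes and 28.6% of hepatocyte metabolism genes. In the OA control it was 25% of immediate early and heat shock genes, 31.25% of TGF-beta targets and 33.3% of ER stress genes.

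The makeup of the organoids was estimated by grouping cells by their expression, with the genes called in any comparison left out. Those genes could not set the groups, but they were still used in naming them. Mesenchymal-like cells, named from their leading marker genes, were 1.13% and 3.47% of cells in the TGFB1 control, 3.15% and 7.37% in the PA control and 26.0% and 32.5% in the OA control. Gut epithelial-like cells were 0.46% and 1.5%, 2.15% and 2.23%, and 35.0% and 29.6% in the same order. Both classes were far more frequent in both OA control libraries, and for mesenchymal-like cells the TGFB1 and PA controls overlapped. Depth entered this grouping: a group of cells with a median of 1329 UMIs held 80.7% and 2.89% of cells in the 2 TGFB1 control libraries, 78.4% and 18.5% in the PA control and 13.2% and 2.04% in the OA control. Thinning every cell to 1000 UMIs was done only with the called genes kept, and it left out 104 to 2931 shallower cells a library. In that grouping mesenchymal-like cells were 3.93% and 3.87%, 5.52% and 8.20%, and 33.2% and 35.8%. Even depth and leaving out called genes were not combined. The size of the gut epithelial-like class depended on the grouping. It was 36.7% and 14.4% of OA control cells with all variable genes used, 28.6% and 8.89% at a finer resolution and 49.7% and 33.5% in thinned cells, against at most 3.62% in any library of the other controls. PLA2G2A was among the 10 leading genes of the class without called genes, whereas with all variable genes it led an unnamed group of 8.65% and 18.8% of OA control cells. Without called genes, cycling-like cells were 13.9% and 12.1% in the TGFB1 control, 2.62% and 3.67% in the PA control and 2.47% and 3.17% in the OA control. Neuroendocrine-like cells were 2.59% and 1.67% in the PA control, 0.11% and 0.15% in the TGFB1 control and 0.02% and 0% in the OA control.

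**Figure D4:**
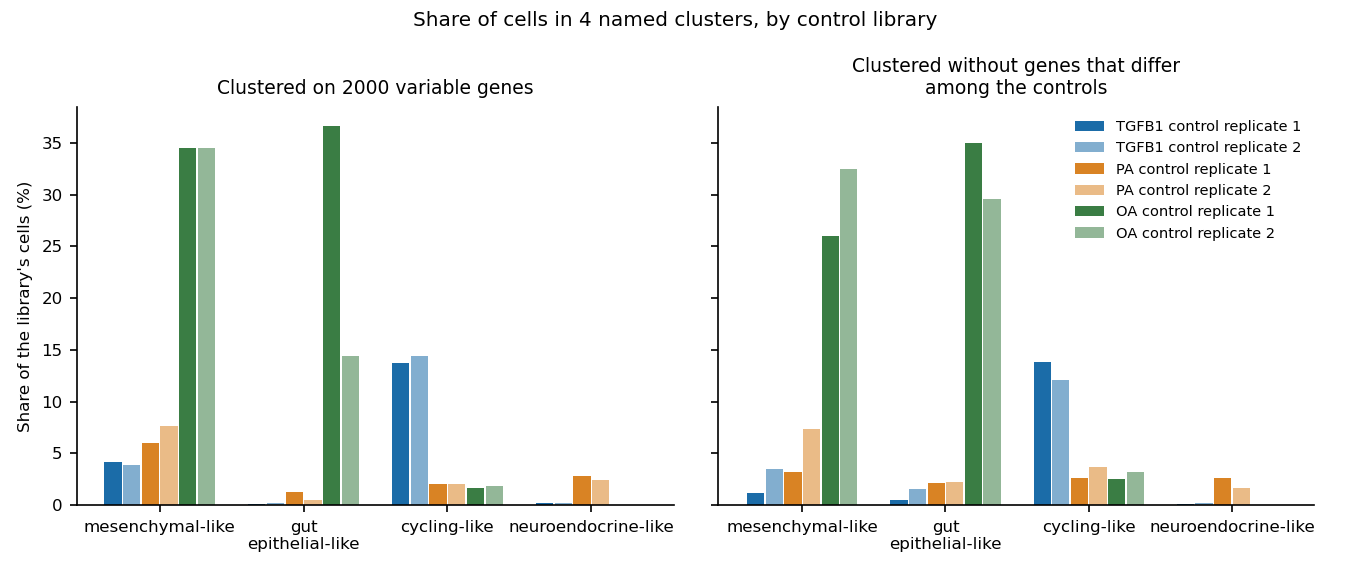
Percent of cells of each library in the named cell classes, for the grouping on all variable genes (left) and without called genes (right), 1 bar per library. In the grouping without called genes mesenchymal-like and gut epithelial-like cells reach 26.0% to 35.0% in the OA control and stay at or under 7.37% in the others.

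With all variable genes used, the mesenchymal-like shares were 4.19% and 3.87%, 6.02% and 7.66%, and 34.5% and 34.5% in the TGFB1, PA and OA controls. The share differences of 5 classes between the 3 pairs of controls were tested on this grouping, and with 2 libraries against 2 the exact two-sided permutation test cannot go below 0.333, so none of the 15 could pass. Cells marked as likely doublets, 2.81% to 9.51% of a library, were kept here. The summed share of UMIs in the mesenchymal marker list needs no grouping. It was 0.108% and 0.105%, 0.0898% and 0.140%, and 0.358% and 0.585%, highest in both OA control libraries. The share in the cycling list was 0.0872% and 0.0670%, 0.0292% and 0.0294%, and 0.0742% and 0.0781%. Most members of these marker lists are also on the matrix and cell cycle lists above, so the sums repeat those results and are not separate support. Cycling markers in the OA control were therefore near the TGFB1 control by UMIs while its share of cycling-like cells was near the PA control, and at a finer grouping the cycling-like share of the OA control exceeded that of the TGFB1 control by 3.33 percentage points. The order of the OA control in dividing cells is not read from the shares. Libraries were clustered with no step to align them with one another. The parts of batch, depth and gene list in the groups were not tested. Most of the remaining cells fell into groups that were largely of 1 control. A group led by MMP12, NKX6-1 and CALB1 held 73.4% and 65.7% of PA control cells. Another, led by HOXB3, SLC17A4 and VEGFA, held 62.2% of TGFB1 control replicate 1 but 3.29% of replicate 2. That last group had a median of 1179 UMIs a cell. Another group, with a median of 5104 UMIs, held 2.75% of replicate 1 and 49.5% of replicate 2. In cells thinned to 1000 UMIs a single group held 48.3% and 36.4% of the TGFB1 control libraries. A group led by the squamous keratins KRT5 and KRT6A held 7.09% and 8.89% of OA control cells and 2.56% and 2.82% of PA control cells.

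Within mesenchymal-like cells alone COL1A1 did not pass the test between OA and TGFB1 controls, and the matrix list was mixed. The class was taken here from the grouping on all variable genes, which the genes called in whole libraries helped to set. There were 403, 329, 193, 440, 1884 and 1069 such cells in the libraries of the TGFB1, PA and OA controls, and their counts were summed per library. By edgeR, 1987 of 12313 genes differed between PA and TGFB1 controls (16.1%), 1839 between OA and TGFB1 controls (14.9%) and 1254 between OA and PA controls (10.2%). Without PA control replicate 1 or 2 the first count was 941 or 264, and the third 552 or 85, and without OA control replicate 1 or 2 the second was 701 or 625 and the third 470 or 485. Leaving out TGFB1 control replicate 1 or 2 took the third to 2260 or 2364. With the class as named without called genes, in 109, 295, 101, 423, 1420 and 1005 cells, the counts were 2087 (17.1%), 1924 (15.7%) and 1748 (14.3%). The makeup of the class differed between controls: at a finer resolution a cluster led by PTGDS, SPON2 and COL1A1 held 92.6% and 85.1% of it in the TGFB1 control, 36.3% and 53.6% in the PA control and 64.1% and 65.7% in the OA control. An unnamed cluster with OGN and CRABP1 among its leading genes held 7.20% and 14.0%, 63.7% and 45.2%, and 32.5% and 33.8%. In the first of these clusters, the only one named mesenchymal-like at that resolution, edgeR called 1239 of 11583 genes (10.7%), 1443 (12.5%) and 908 (7.84%). COL1A1 stood at 4074 and 3725 CPM in the TGFB1 control, 1934 and 2088 in the PA control and 3154 and 3814 in the OA control in these cells, and no comparison passed (edgeR adjusted p 0.115, 0.785 and 0.0867). With the class named without called genes, COL1A1 was lower in the PA than in the TGFB1 control (log2 fold change -0.999, edgeR adjusted p 0.033) and higher in the OA than in the PA control (0.93, adjusted p 0.0498). Of 20 matrix genes, 2 were higher and 2 lower in the OA than in the TGFB1 control, 5 were lower in the PA control, and 7 were higher in the OA than in the PA control. These counts moved with the grouping: between PA and TGFB1 controls 1 was higher and 1 lower in the finer cluster and 8 were lower with the class named without called genes, and between OA and PA controls 3 and 9 were higher. DCN was still higher in the OA control, at 372 and 322 CPM against 108 and 83.2 in the TGFB1 control and 28.7 and 94.0 in the PA control (OA against TGFB1 control: log2 fold change 2.19, edgeR adjusted p 0.000932).

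Position and contractile genes differed from the TGFB1 control within these cells. The counts below stand beside the shares called among all genes tested in the class. These were 16.1% between PA and TGFB1 controls, 14.9% between OA and TGFB1 controls and 10.2% between OA and PA controls. Of 9 anterior HOX genes tested, 5 were lower in the PA control and 5 in the OA control than in the TGFB1 control. HOXB2 stood at 45.9 and 58.4 CPM in the TGFB1 control, 0 and 7.46 in the PA control and 17.6 and 28.4 in the OA control, with both TGFB1 control libraries highest. Of 16 posterior HOX genes, 8 were higher and 1 lower in the PA control, and 4 were higher and 1 lower in the OA control. Between OA and PA controls none was higher and 3 were lower in the OA control, with a median of -0.68, where whole libraries had 10 higher and none lower. HOXA11 stood at 2.62 and 3.28 CPM in the TGFB1 control, 14.3 and 19.7 in the PA control and 15.1 and 18.8 in the OA control, both comparisons with the TGFB1 control passing (log2 fold change 2.69 and 2.67, edgeR adjusted p 0.00122 and 0.000329). Among 11 contractile genes 7 were higher in the PA control and 3 in the OA control than in the TGFB1 control, and none was lower. Between OA and PA controls 1 was higher and 1 lower, with a median of -0.50. CRABP1, a carrier of retinoic acid, stood at 9.18 and 23.0 CPM in the TGFB1 control, 464 and 298 in the PA control and 49.1 and 44.2 in the OA control. It is among the leading genes of the unnamed finer cluster that made up more of the class in the PA control. It was 4.50 higher in the PA than in the TGFB1 control on the log2 scale (edgeR adjusted p 0.000116). In the cluster named mesenchymal-like at the finer resolution CRABP1 was far lower, at 4.22 and 1.58 CPM in the TGFB1 control, 31.6 and 69.0 in the PA control and 21.7 and 19 in the OA control, and the log2 fold change of PA over TGFB1 control was 4.93 (edgeR adjusted p 3.91e-05). In that cluster anterior HOX genes gave 3 and 4 lower of 8 in the PA and OA controls against the TGFB1 control. Posterior HOX genes gave 3 and 3 higher of 13, and contractile genes 7 and 3 higher of 12. Among all genes tested there, 10.7% and 12.5% were called in these comparisons. DHRS3, a retinaldehyde reductase, was higher in the TGFB1 control, at 82.6 and 60.2 CPM against 8.60 and 2.39 in the PA control and 8.65 and 10.1 in the OA control.

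Within the cells grouped as mesenchymal-like, 9 of 18 genes of ER stress and the amino acid response were lower in the PA control and 9 in the OA control than in the TGFB1 control. None was higher, and the medians were -1.05 and -0.96. The OA count includes ASNS (log2 fold change -6.11, edgeR adjusted p 2.38e-07), whose exons overlap a gene found in only 1 of the gene lists, so its value is uncertain. The number of likely doublets marked in a library was set by its count of barcodes, so it does not measure mixing. It came to 9.51% and 7.50%, 3.24% and 5.24%, and 5.48% and 2.81% of all cells in the TGFB1, PA and OA controls. Among mesenchymal-like cells, likely doublets were 85 of 403 and 36 of 329 in the TGFB1 control. The PA control had 12 of 193 and 20 of 440 of these cells so marked, and the OA control 123 of 1884 and 34 of 1069. EPCAM, an epithelial surface protein, stood at 125 and 79.5 CPM in the TGFB1 control, 17.2 and 35.2 in the PA control and 40.9 and 20.1 in the OA control in them, lower in the PA and OA controls than in the TGFB1 control (log2 fold change -1.48 and -1.38, edgeR adjusted p 0.0197 and 0.0127). TRIB3, a pseudokinase induced by that response, stood at 69.5 and 65.7 CPM in the TGFB1 control, 2.87 and 6.56 in the PA control and 3.84 and 3.82 in the OA control, and its calls against the TGFB1 control held with likely doublets left out. DDIT3, encoding CHOP, a transcription factor of that response, stood at 64.3 and 130.3, 11.5 and 23.3 and 11.2 and 12.9 CPM in the TGFB1, PA and OA controls. For DDIT3 the log2 fold change of the OA against the TGFB1 control was -2.82 (edgeR adjusted p 6.51e-05). Epithelial factors were also lower: of 14 liver and foregut transcription factors tested, 8 were lower in the PA control and 10 in the OA control. ONECUT2 stood at 233 and 66.0 CPM in mesenchymal-like cells of the TGFB1 control, where the whole libraries held 874 and 559, and at 8.30 and 6.44 in those of the OA control. With likely doublets left out, edgeR called 1931 of 11886 genes between PA and TGFB1 controls (16.2%), 1690 between OA and TGFB1 controls (14.2%) and 1295 between OA and PA controls (10.9%), and EPCAM lost its call between PA and TGFB1 controls and kept it between OA and TGFB1 controls. The part of free RNA in such epithelial counts was not tested.

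In the cells outside that class 3980 of 17718 genes differed between PA and TGFB1 controls (22.5%), 4983 between OA and TGFB1 controls (28.1%) and 4359 between OA and PA controls (24.6%). Here 17 of 20 matrix genes were higher in the OA control than in the TGFB1 control and 16 in the PA control, none was lower, and the medians were 2.33 and 1.42. The 17 gut genes gave 13 higher and 1 lower in the OA control, and the 21 cell cycle genes 17 lower in the PA control, while their count in mesenchymal-like cells depended on the grouping as given above. Matrix RNA therefore differed also among cells not grouped as mesenchymal-like. The part of free RNA in this was not tested.

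The OA control was counted on another gene list than the other controls, and particular genes differed along with the list. The part of the list in these differences was not tested. Among genes called between OA and TGFB1 controls were 412 (40.7%) of the 1012 whose exons overlap, on the same strand, a gene present in only 1 of the lists, against 4889 (28.1%) of the other 17406. For OA against PA controls these were 382 (37.7%) and 4003 (23.0%), and for PA against TGFB1 controls, counted on the same list, 218 (21.5%) and 3835 (22.0%). EEF1G (GRCh38, chromosome 11, 62559596 to 62574086), a subunit of elongation factor 1 that all cells make, stood at 3.06 to 8.79 CPM in the 8 libraries of the 33538-gene list and 395 to 991 in the 4 of the 36601-gene list, treated arms included. ATP6V0C, a subunit of the vacuolar proton pump, stood at 1.74 to 3.02 CPM in the 8 libraries of the 33538-gene list and 298 to 467 in the 4 of the 36601-gene list. Among genes that met the rule for naming, all 8 with the largest rise in the OA over the PA control overlap such a gene: MRPS24, NME2, ATP6V0C, EEF1G, SERPINA3, TRAPPC5, PAM16 and TXNDC5. Values of these genes are uncertain, and so are those of ACTA2, ASNS, IGF2, PTP4A1 and FKBP2, which overlap as well. CYP51A1, an enzyme of sterol synthesis, also differed by list, at 3.49 to 13.7 CPM in the 8 libraries of the 33538-gene list and 116 to 527 in the 4 of the 36601-gene list, without an overlap found. A gene was counted as split where, with 1 CPM added, every control and treated library on one list lay at least 8-fold above all those on the other, which CYP51A1 did not meet. With the overlapping and split genes left out, CYP51A1 being kept, 3839 of 17401 genes were called between PA and TGFB1 controls, 4808 between OA and TGFB1 controls and 3926 between OA and PA controls.

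**Figure D5:**
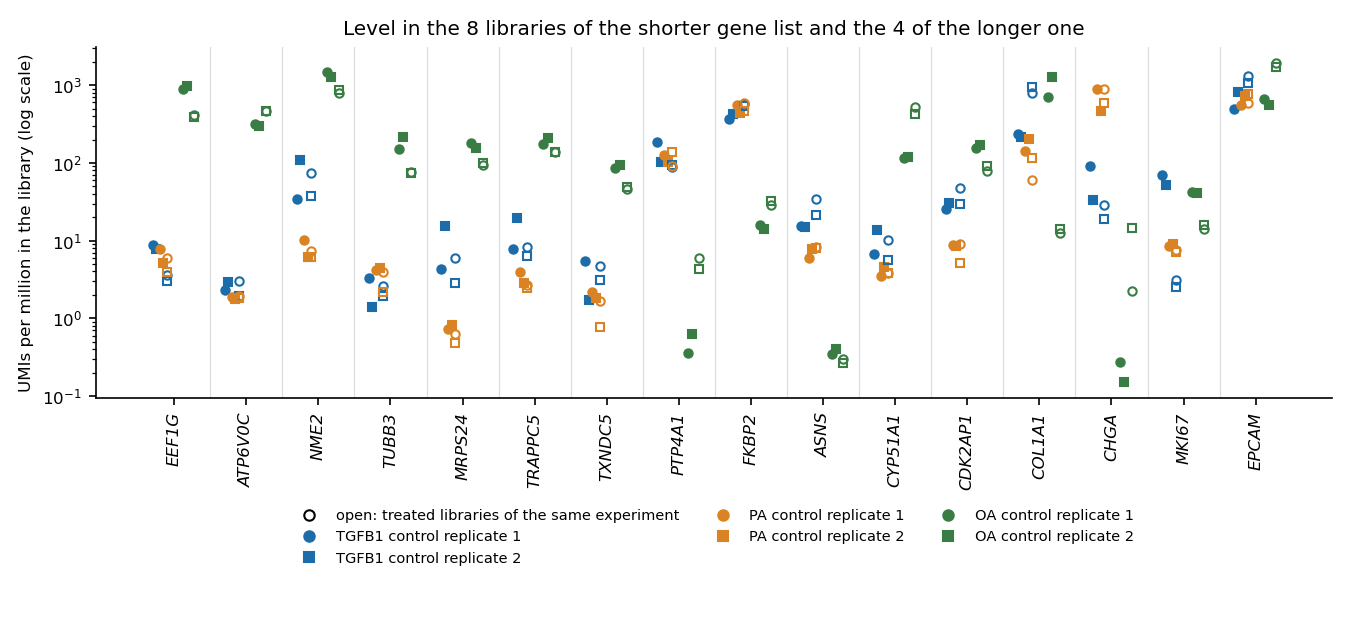
CPM on a log axis of 16 genes in the control (filled) and treated (open) libraries, with colour for the experiment and shape for the replicate. EEF1G lies at 3.06 to 8.79 CPM in the 8 libraries of the 33538-gene list and 395 to 991 in the 4 of the 36601-gene list, whereas COL1A1 overlaps between the lists.

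The treated arms were set beside the controls by log2 ratios of CPM, without TMM scaling. Baseline gaps were as wide as the response for 3 of 9 marker genes looked at, COL1A1, TGFBI and PDK4, and narrower for the other 6. For PDK4 the gap was 2.62 and the response 2.45, a margin smaller than the shift TMM scaling makes between OA and TGFB1 controls. COL1A1 stood at 798 and 946 CPM in TGFB1-treated organoids, above their own control (234 and 217) and within the range of the OA control (712 and 1261). TGFBI, a matrix protein induced by TGFB1, stood at 219 and 229.5 CPM in the treated libraries, 41.1 and 41.2 in their own control and 284 and 312 in the OA control. PMEPA1, another target of the cytokine, had no such gap: its controls overlapped, at 135 and 163 CPM in the TGFB1 control, 124 and 142 in the PA control and 129.8 and 139 in the OA control (edgeR adjusted p 0.718 for any difference), and the treated libraries stood at 645 and 580.3 CPM. For the OA arm, PLIN2, a lipid droplet coat protein, stood at 109 and 199 CPM in the TGFB1 control, 147 and 172 in the PA control and 169.8 and 174 in the OA control and at 918 and 849 CPM with OA. PDK4, a kinase that slows glucose oxidation, stood at 26.3 and 17.8 CPM in the TGFB1 control, 6.98 and 8.55 in the PA control and 3.22 and 3.97 in the OA control and at 21.9 and 17.3 with OA, so the treated libraries reached the level of the TGFB1 control and not beyond it. In the PA arm, CXCL2 stood at 137 and 236 CPM with PA, against 41.1 and 43.5 in its own control and 121 and 86.1 in the TGFB1 control. Its response to PA, a log2 ratio of 2.14, exceeded the gap of 1.29 between the highest and lowest control. CXCL1 stood at 304 and 616 CPM with PA, and BIRC3 at 28.7 and 37.7, with log2 ratios of 2.61 and 2.24 to their own control and gaps between controls of 0.93 and 1.18. CPT1A, which admits fatty acids to mitochondria, stood at 77.4 and 66.4 CPM with OA, a log2 ratio of 3.13, against a gap of 0.89.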

How the data were processed

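Counts were deposited by the authors as 1 filtered matrix of whole UMI counts per library, not normalised; the submitters' processing notes name bcl2fastq, Cell Ranger 3.0.2, Scanpy and GRCh38. Per the file headers, the matrices of the TGFB1 and PA arms were written by Cell Ranger 3.0.2 and those of the OA arm by 6.0.2.

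From these counts, barcodes were dropped below 500 genes or above 20% mitochondrial UMIs. UMIs of the 32732 genes shared by Ensembl identifier were summed per library. The 6 sums were fitted together with edgeR 4.0.16 (R 4.3.3; filterByExpr, TMM, quasi-likelihood test, Benjamini-Hochberg adjustment over 18418 genes); the script was tested on simulated data. CPM in the text are unscaled by TMM.

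Cells were clustered with scanpy 1.11.5 (2000 variable genes, 30 components, 15 neighbours, Leiden resolution 0.5, no alignment of libraries) on all variable genes and again without called genes. Classes were named where at least 3 fixed markers stood among 50 leading genes, more than of any other class, and no other class had as many among the first 10 where it had any. A cluster led by APOA4, APOC3 and RBP2 reached the marker count for hepatocyte-like but was not taken as such, a choice made after its genes were seen. No hepatocyte-like share was therefore tested. By the rule alone that class held 0.37% and 1.02% of cells in the TGFB1 control, 7.61% and 14.2% in the PA control and 5.02% and 7.43% in the OA control. In thinned cells these were 1.08% and 0.75%, 15.1% and 12.4%, and 0.58% and 0.97%. The class was not found without called genes. No ductal-like share is compared, since that class was not found at resolution 1.0 or without called genes, although it is among the 5 classes of the share tests. In thinned cells it held 48.3% and 36.4% of cells in the TGFB1 control and at most 4.38% in any library of the other controls. Likely doublets were the highest-scoring cells of a Scrublet-type caller, a set number per library of 0.8% of cells per 1000 barcodes. They were kept, and leaving them out was an alternative.

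Genes named are, per comparison, the 8 called genes with the largest log2 fold change each way whose libraries do not overlap, with a mean of at least 50 CPM in the higher group and 10 counts in the lower (mitochondrial, ribosomal, sex-linked marker and clone-named genes left out); the same again without genes whose models overlap a gene of 1 list; up to 3 called per gene list; and 10 genes named whatever their values. Other genes in the text were chosen after their values were seen. The controls, lists and rules were chosen with earlier results of these data known. Positions are from GENCODE release 44 on GRCh38, which matched 32551 genes. Summed libraries hold 6878457 UMIs or more, and genes of a few CPM are the least precise. Sums over mesenchymal-like cells are smaller, with 762470 UMIs in TGFB1 control replicate 1 and 348967 in PA control replicate 1. In the latter, TRIB3 at 2.87 CPM is 1 count and DHRS3 at 8.60 CPM is 3. Alternatives were DESeq2 1.42.0, other scalings and filters, thinning, stricter cells, doublets left out, a replicate block, each library left out and, added after seeing the data, the mesenchymal-like class as 2 other groupings name it.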

Additional observations from a re-analysis of the deposited data

How the results depend on the processing

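The whole-library counts of called genes moved by less than 1.5 times under DESeq2, other scalings and filters, stricter cells, and doublets left out. The exception was thinning all libraries to one depth, which took the OA against TGFB1 control from 5301 to 3520 genes. Thinning also cut the genes tested from 18418 to 14372, so the share called went from 28.8% to 24.5%. With 1 library left out at a time, the lone library is assumed to vary like the other groups. The counts then ran from 1288 to 4916 for PA against TGFB1 controls, 2757 to 6928 for OA against TGFB1 controls, 1896 to 6416 for OA against PA controls, and 4692 to 9693 for any difference. In mesenchymal-like cells they ran from 264 to 2235, 625 to 2527 and 85 to 2364, and DESeq2 called 1197, 834 and 606 against 1987, 1839 and 1254 by edgeR; the cause was not tested. With the class as named at resolution 1.0, which holds fewer cells, the first was 1239. In each whole-library case the lowest count came without a PA or OA control library and the highest without a TGFB1 control library. Replicate numbers are not known to pair libraries across controls (correlations of same-numbered deviations 0.133, 0.0493 and 0.138). With the replicate block, 4905, 6117 and 5278 genes were called in the 3 comparisons and 8769 for any difference. Class shares reversed in 4 cases. At resolution 1.0 the mesenchymal-like share of the PA minus the TGFB1 control was -0.331 percentage points (2.81 at resolution 0.5). The cycling-like share of the OA minus the TGFB1 control was 3.33 at resolution 1.0 (-12.3 at 0.5), and that of the OA minus the PA control was 5.23 at resolution 1.0 and 0.696 in cells thinned to 1000 UMIs (-0.251 at 0.5 in cells not thinned, all variable genes used). KRT14 between PA and TGFB1 controls gave a log2 fold change of 5.58, and of -2.22 to 7.75 with 1 library left out, being negative without PA control replicate 2, its only PA control library with counts. Of named genes called in whole libraries, 56 of 87, 80 of 92 and 69 of 93 kept their call in every alternative run, in the order of comparisons above. Uneven depth within each control limits genes of a few counts most.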
